A study of Rattus norvegicus with 9 samples.

Results

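GABA receptor subunit genes were followed in the cerebral cortex of rat pups on postnatal day 4. The members were 7 genes: Gabra2, Gabra3, Gabra4, Gabra5, Gabrb1 and Gabrb2 of the GABA-A receptor, and Gabbr1 of the GABA-B receptor. Every probe set whose platform annotation named exactly 1 of these symbols was taken, which gave 12 of the 31099 probe sets on the array. Gabbr1 had 5 of them, Gabrb2 had 2 and the other genes had 1 each. In all, 14217 genes were named on the array by a symbol of their own. The 3 groups were control pups (0 ppm), pups at 750 ppm and pups at 2500 ppm of 4-methylimidazole (4-MeI) in the diet, with 3 arrays in each. 4-MeI is an imidazole compound found in caramel colouring and roasted foods, and the series title names gestational exposure and maternal seizures as its setting. All animals were Hsd:Sprague Dawley SD rats, and exposure of the breeding F0 animals ran through successive pregnancies and generations. Each pup came from a different F2b litter. Neither the seizure history of each dam nor pup sex is given in the labels. Which of dietary 4-MeI and a dam's seizures goes with a difference therefore cannot be told apart here.

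GABA is the main inhibitory transmitter of the adult brain. GABA-A receptors are chloride channels built from 5 subunits drawn from several families, and the alpha and beta subunits form the GABA binding site between them. The GABA-B receptor is a heterodimer coupled to G proteins, in which the Gabbr1 product binds GABA. In newborn rodent cortex, neurons keep chloride high, so that GABA-A receptors can depolarise them, and alpha-subunit use changes during the first weeks of life.

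The arrays reported RMA values, which are log2 intensities summarised per probe set. Intensity doubles with each added unit. All 12 member probe sets passed the filter on dim probe sets (a mean over the 9 arrays above a log2 value of 6.35), the dimmest of them at a mean of 6.49. Median log2 values of the arrays lay between 7.67 and 7.71. Control replicate 3 stood apart from its group on the first principal component, at -25.2 against -8.64 and -9.47. The 750 ppm replicate 3 stood apart as well, at 14.98 against -5.97 and -11.3 in its group. Of the general neuronal markers, 9 of 9 passed the filter, as did 14 of 17 markers of cortical excitatory neurons. Among markers of bordering tissue, 15 of 17 striatal genes, 16 of 17 meningeal genes and 7 of 12 choroid plexus genes passed the filter. Passing the filter is not a detection call and does not show that a tissue was present.

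None of the 12 member probe sets passed the threshold in any comparison (limma, Benjamini-Hochberg adjusted p under 0.05 over 21729 probe sets). Gabra2, which encodes the alpha2 subunit found at many synapses of the immature forebrain, had the largest measured difference of the 12 in each comparison. It was lower at 2500 ppm than in controls by a log2 value of 0.53 and higher at 750 ppm by 0.39, and both missed the threshold. For 10 of the 12 probe sets, the 95% interval of the difference from control lay within a log2 value of 0.5 on either side of 0, at both concentrations. The exceptions were Gabra2 and Gabrb1.

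**Figure D1:**
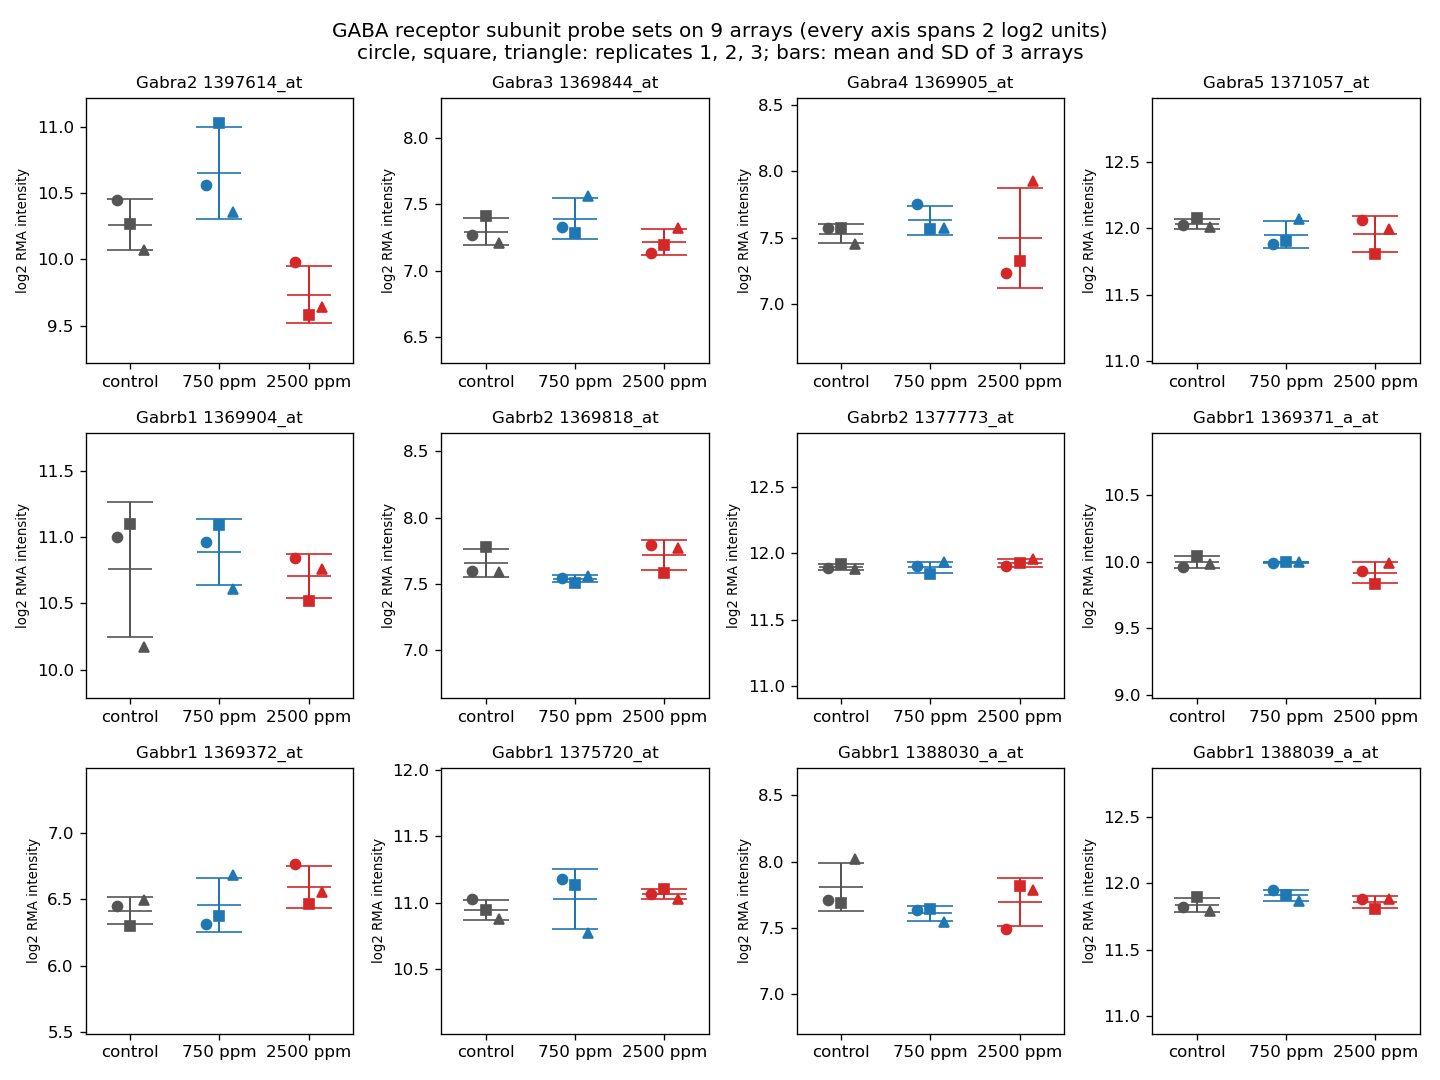
Log2 RMA intensity of the 12 probe sets (vertical axes, each spanning 2 log2 units) on the 3 arrays of each group (horizontal axes), with the mean and SD. Gabra2 at 2500 ppm lies between 9.58 and 9.98, below every control array, and Gabrb1 has 1 low control array at 10.17.

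The level of a probe set depends on its probes, so levels were compared between groups and not between genes. Both Gabrb2 probe sets show this, at means over the 9 arrays of 7.64 and 11.91 for transcripts of the same gene. No order of subunit abundance at postnatal day 4 was therefore read from these values. Control means were 12.03 (SD 0.038) for Gabra5, 10.76 (SD 0.51) for Gabrb1, 10.26 (SD 0.19) for Gabra2, 7.53 (SD 0.071) for Gabra4 and 7.30 (SD 0.10) for Gabra3, each over 3 arrays. For Gabrb2 they were 11.90 (SD 0.020) and 7.66 (SD 0.11), and the 5 Gabbr1 probe sets ran between 6.41 (SD 0.10) and 11.84 (SD 0.054). Among the other GABA receptor genes, 11 had a probe set with a symbol of their own, and 5 of these 11 passed the filter: Gabrg1, Gabrd, Gabrq, Gabrr2 and Gabbr2.

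The Gabra2 probe set (1397614_at) had log2 values of 10.45, 10.27 and 10.07 in controls, 10.56, 11.03 and 10.36 at 750 ppm, and 9.98, 9.58 and 9.64 at 2500 ppm. The 2500 ppm arrays all lay below the control arrays and below the 750 ppm arrays. The 750 ppm arrays all lay above the control mean, but their lowest overlapped the highest control. In order of level, 2500 ppm came lowest at a mean of 9.74 (SD 0.22), followed by control at 10.26 (SD 0.19) and 750 ppm at 10.65 (SD 0.35).

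Against control, Gabra2 differed by -0.53 at 2500 ppm (SE 0.18, 95% interval -0.93 to -0.13, n = 3 against 3, limma unadjusted p = 0.0151, adjusted p = 0.195). That is an intensity ratio of 0.694. At 750 ppm the difference was 0.39 (SE 0.18, 95% interval -0.012 to 0.79, limma adjusted p = 0.503). The 2500 ppm group stood 0.91 below the 750 ppm group on the log2 scale (difference -0.91, SE 0.18, 95% interval -1.31 to -0.52, limma unadjusted p = 0.000545, adjusted p = 0.0779). The intensity ratio between them was 0.530. With dietary concentration as a number, the slope was -0.27 per 1000 ppm (SE 0.10, limma adjusted p = 0.259). Both comparisons with control share the control arrays, so their values are not independent of each other.

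Some settings put Gabra2 past the threshold. With array weights, which let arrays that deviate from their group count for less, it was at -0.70 at 2500 ppm against control (limma adjusted p = 0.0212) and at -1.09 between 2500 and 750 ppm (limma adjusted p = 0.0131). Without 750 ppm replicate 3, the difference between 2500 and 750 ppm was -1.06 (limma adjusted p = 0.0154), and without 750 ppm replicate 2 it was -0.72 (limma adjusted p = 0.193). The sign of all 3 Gabra2 differences was kept in each of the 18 alternatives run.

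Tissue markers also differed between the arrays. In cortex taken as a whole, fewer cells of a type and less RNA per cell cannot be told apart. The mean of the 15 striatal markers, relative to its mean over all arrays, ran between -1.10 and -0.08 at 2500 ppm and between 0.33 and 0.74 in controls. In the 750 ppm arrays it was 0.68, 0.58 and -1.02. Gabra2 was lowest in 2500 ppm replicate 2, where the striatal mean was -0.08, and was 10.36 in 750 ppm replicate 3, the lowest of its group, where the striatal mean was -1.02. The 7 choroid plexus markers had a mean between 0.28 and 1.46 at 2500 ppm and between -0.75 and -0.61 in controls. Of these marker genes, Tac1 of the striatum fell by 1.10 at 2500 ppm against control (limma adjusted p = 0.0185) and Ttr of the choroid plexus rose by 5.67 (limma adjusted p = 0.0135), all on the log2 scale. Of the meningeal list, Fmod, Slc47a1 and Aldh1a2 rose by 1.12, 0.99 and 0.71 at 2500 ppm against control (limma adjusted p = 0.0266, 0.0235 and 0.0185). None of that list was called at 750 ppm against control, where its median difference was 1.23, beside 0.88 at 2500 ppm. The meningeal mean ran between 0.29 and 0.55 at 750 ppm, 0.01 and 0.40 at 2500 ppm, and -1.10 and -0.18 in controls. Ttr was also higher by 4.33 at 2500 ppm against 750 ppm (limma adjusted p = 0.0300), and in the dose trend Tac1, Ttr, Sostdc1 and Slc47a1 passed. Their part in the Gabra2 difference was not tested. The neuronal list differed less, between -0.01 and 0.16 at 2500 ppm and between -0.06 and 0.02 in controls. The cortical excitatory list ran between -0.01 and 0.06 at 2500 ppm and between 0.01 and 0.10 in controls.

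**Figure D2:**
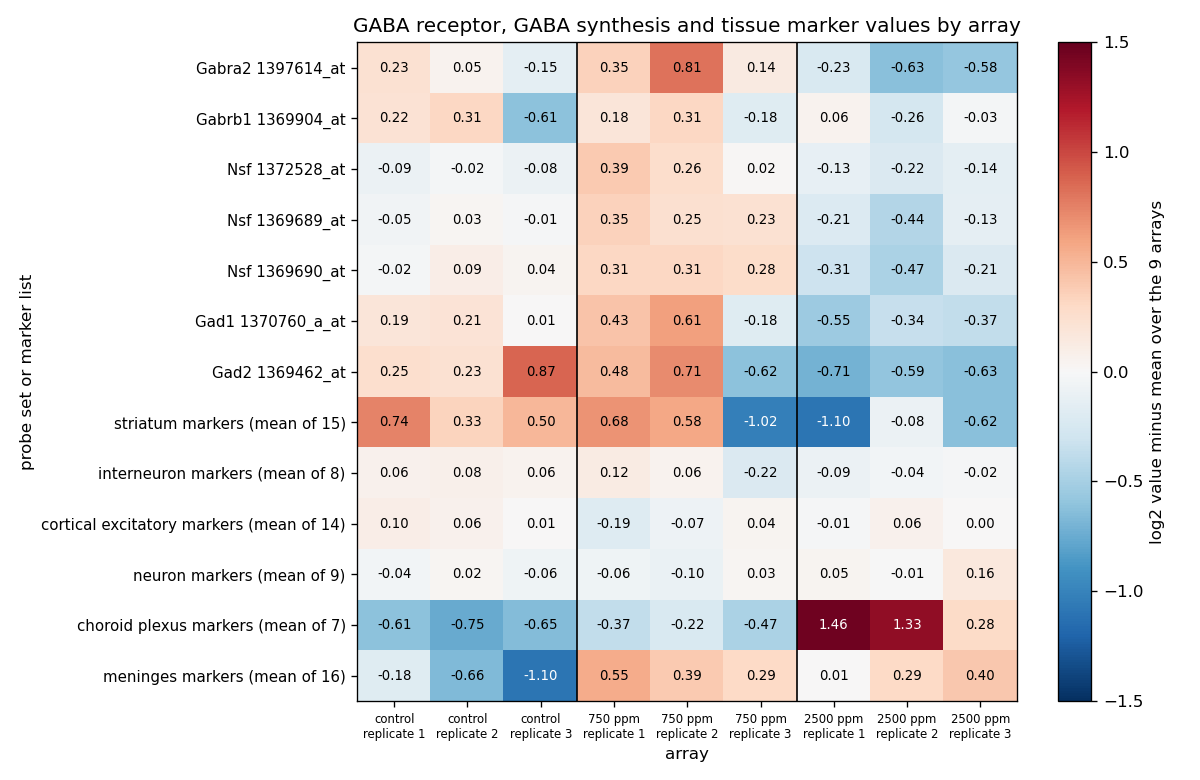
Each cell is a log2 value minus its mean over the 9 arrays, for single probe sets (upper rows) and for the mean of a marker list (lower rows), with arrays along the horizontal axis by group. Gabra2 is below its mean on all 3 arrays at 2500 ppm, at -0.23, -0.63 and -0.58, while the striatal mean there is -1.10, -0.08 and -0.62.

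Genes with the profile most like that of Gabra2 over the 9 arrays were found by the root mean square difference of centred log2 values. They were Syn2 (0.16), a synapsin of synaptic vesicles, Bdnf (0.16), a neurotrophin, and Ahi1 (0.20). The Syn2 probe set had values of 7.92, 7.96 and 7.52 in controls, 8.09, 8.19 and 7.67 at 750 ppm, and 7.23, 6.97 and 7.21 at 2500 ppm. On the Bdnf probe set, controls were at 7.05, 6.93 and 6.77, the 750 ppm arrays at 7.38, 7.49 and 6.93, and the 2500 ppm arrays at 6.45, 6.36 and 6.64. On the Ahi1 probe set, controls were at 8.54, 8.46 and 8.27 and the 2500 ppm arrays at 7.93, 7.88 and 7.55. Like Gabra2, all 3 genes had 2500 ppm arrays that lay below all the control arrays. Over all probe sets tested, the arrays of these groups did not overlap in 23.3%. The 3 genes were picked for their likeness to Gabra2, so their values are a description.

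In the other 3 alpha subunit genes, the arrays of the groups overlapped in every comparison. Gabra5 encodes alpha5, a subunit of receptors that lie largely outside synapses, and is abundant in hippocampus. Its values were 12.02, 12.08 and 12.01 in controls, 11.88, 11.91 and 12.07 at 750 ppm, and 12.06, 11.80 and 11.99 at 2500 ppm. The groups overlapped, with differences from control of -0.083 at 750 ppm (95% interval -0.27 to 0.10, limma adjusted p = 0.737) and -0.081 at 2500 ppm (95% interval -0.26 to 0.10, limma adjusted p = 0.658).

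Gabra3 encodes alpha3, a subunit prominent in developing cortex. It had values of 7.27, 7.41 and 7.21 in controls, 7.33, 7.28 and 7.57 at 750 ppm, and 7.13, 7.19 and 7.32 at 2500 ppm. Overlapping groups gave differences of 0.097 at 750 ppm (95% interval -0.11 to 0.31, limma adjusted p = 0.730) and -0.080 at 2500 ppm (95% interval -0.29 to 0.13, limma adjusted p = 0.705). Gabra4 encodes alpha4, which pairs with the delta subunit in receptors that carry tonic currents. Its values were 7.57, 7.57 and 7.45 in controls, 7.76, 7.56 and 7.57 at 750 ppm, and 7.24, 7.33 and 7.93 at 2500 ppm. The 2500 ppm arrays held both its lowest values and its highest. That group's SD was 0.37, against 0.071 in controls, and the difference was -0.035 (95% interval -0.39 to 0.32, limma adjusted p = 0.933). At 750 ppm it was 0.099 (95% interval -0.26 to 0.45, limma adjusted p = 0.845). The profiles most like Gabra4 were those of Plcd4 (root mean square difference 0.093), Bmp2 (0.10) and Ap5s1 (0.10), and on all 3 the highest array was 2500 ppm replicate 3 or 750 ppm replicate 1.

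The beta subunits are needed for assembly of the receptor. The Gabrb1 probe set had values of 11.00, 11.10 and 10.17 in controls, 10.96, 11.09 and 10.61 at 750 ppm, and 10.84, 10.52 and 10.76 at 2500 ppm. Control replicate 3 was the lowest of the 9 arrays, and it carried the control SD of 0.51. Differences from control were 0.13 at 750 ppm (95% interval -0.39 to 0.65, limma adjusted p = 0.863) and -0.051 at 2500 ppm (95% interval -0.57 to 0.47, limma adjusted p = 0.932). Without control replicate 3 they were -0.16 at 750 ppm and -0.34 at 2500 ppm (limma adjusted p = 0.878 and 0.345). The profiles most like Gabrb1, those of Cfap90 (0.12), Phkb (0.13) and Pex19 (0.13), were likewise lowest in control replicate 3.

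For Gabrb2, the brighter probe set (1377773_at) kept within 11.85 and 11.96 on all 9 arrays, the narrowest range of the 12. Its difference from control was -0.0019 at 750 ppm (95% interval -0.12 to 0.12, limma adjusted p = 0.994) and 0.031 at 2500 ppm (95% interval -0.087 to 0.15, limma adjusted p = 0.804). The dimmer probe set (1369818_at) had values of 7.60, 7.78 and 7.59 in controls, 7.54, 7.51 and 7.56 at 750 ppm, and 7.79, 7.58 and 7.77 at 2500 ppm. Its 750 ppm arrays lay just below all others, at -0.12 from control (limma adjusted p = 0.604), and the 2500 ppm group stood 0.18 above the 750 ppm group (95% interval 0.0042 to 0.35, limma adjusted p = 0.387).

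Gabbr1 encodes the GABA-B subunit that binds GABA, and its 5 probe sets include 3 whose suffix marks several transcripts of the gene. At 2500 ppm the differences from control were -0.078, 0.18, 0.12, -0.11 and 0.020 on 1369371_a_at, 1369372_at, 1375720_at, 1388030_a_at and 1388039_a_at in turn. At 750 ppm they were -0.0011, 0.043, 0.083, -0.20 and 0.072 in the same order. The probe sets thus differed in sign, and limma adjusted p-values were between 0.478 and 0.997. On 1388039_a_at, the brightest, values were 11.82, 11.90 and 11.79 in controls, 11.95, 11.91 and 11.87 at 750 ppm, and 11.88, 11.80 and 11.88 at 2500 ppm. On 1375720_at the 2500 ppm arrays, at 11.06, 11.10 and 11.03, all lay above the control arrays at 11.02, 10.94 and 10.87, by a margin smaller than the spread within either group. The 750 ppm arrays of that probe set, at 11.18, 11.14 and 10.77, spanned both. On 1388030_a_at, control replicate 3 was the highest array at 8.02, and the 750 ppm arrays, at 7.63, 7.65 and 7.55, lay below all controls. The dimmest, 1369372_at, ran between 6.30 and 6.77 and overlapped in all comparisons. The partner gene Gabbr2, whose product brings the dimer to the cell surface, was at -0.19 on 1368952_at at 750 ppm (limma adjusted p = 0.336) and -0.19 at 2500 ppm (limma adjusted p = 0.173). All treated arrays of that probe set, between 7.35 and 7.49, lay below the controls at 7.64, 7.63 and 7.58. Its brighter probe set, 1387383_at, was at -0.12 at 750 ppm (limma adjusted p = 0.536) and 0.040 at 2500 ppm (limma adjusted p = 0.775), with overlapping arrays, so the 2 probe sets differed in sign at 2500 ppm. With array weights, 1368952_at passed the threshold at 2500 ppm (-0.22, limma adjusted p = 0.0250).

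**Figure D3:**
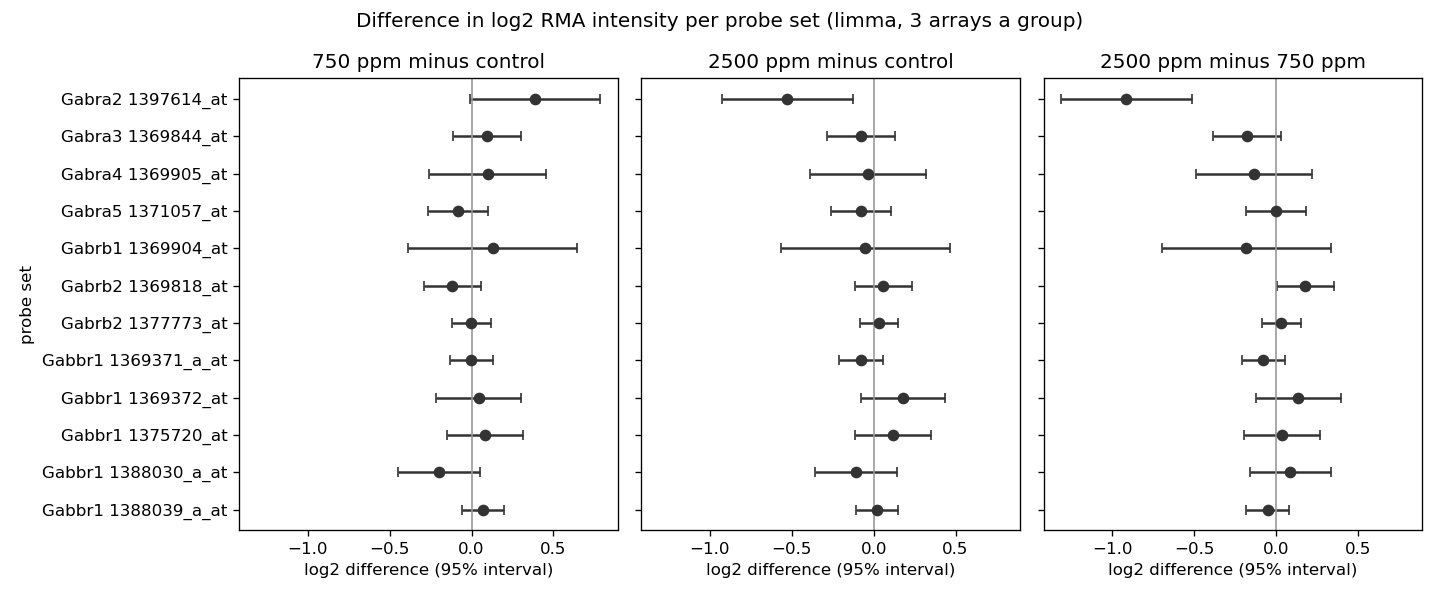
Difference in log2 RMA intensity (horizontal axes) for the 12 probe sets (vertical axis) in 3 comparisons, with 95% intervals from limma. Gabra2 has the largest difference in each panel (0.39, -0.53 and -0.91). At 750 ppm against control every interval includes 0, and at 2500 ppm against control only that of Gabra2 excludes it. Between the concentrations, the intervals of Gabra2 and Gabrb2 1369818_at exclude 0.

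Each count of members is given here beside the share over all probe sets tested. At 2500 ppm against control, 0 of 12 were called, against 0.686% of all probe sets, of which 0.405% were lower and 0.281% higher. Of the 12, 5 were above 0, against 52.2% of all. Of the 12, 1 had an unadjusted p under 0.05, against 16% of all, and 2 had arrays that did not overlap, against 23.3% of all. The member median was -0.043, beside 0.0070 over all probe sets. At 750 ppm, 0 of 12 were called (0.0092% of all), 7 were above 0 (50.9% of all), 0 had an unadjusted p under 0.05 (10.1% of all) and 2 did not overlap (14.2% of all). The median there was 0.058, beside 0.0023 over all. Between 2500 and 750 ppm, 0 of 12 were called (0.322% of all), 6 were above 0 (47.9% of all), 2 had an unadjusted p under 0.05 (12.6% of all) and 3 did not overlap (17.4% of all). The dose trend called 0 of 12 (0.479% of all, 0.341% with a falling slope), with 5 slopes above 0 (51.5% of all) and 1 at an unadjusted p under 0.05 (15% of all).

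The remaining GABA-A subunits were measured by 6 probe sets past the filter, of 17 on the array. None was called, 3 were higher and 3 lower at 750 ppm, and 2 were higher and 4 lower at 2500 ppm, with medians of -0.0078 and -0.068. Gabrg1, a gamma subunit gene, was at 0.22 at 750 ppm (limma adjusted p = 0.588). Gabrd, the delta subunit gene, was at -0.10 at 750 ppm (limma adjusted p = 0.618) and -0.093 at 2500 ppm (limma adjusted p = 0.544) on 1395270_x_at. Its other probe sets were at 0.16 (1369048_at) and -0.10 (1395269_s_at) at 750 ppm, and at -0.10 and -0.052 at 2500 ppm. Gabrq, the theta subunit gene, was at 0.064 at 2500 ppm (limma adjusted p = 0.658). Of the GABA-B partners, 0 of 5 probe sets were called at either concentration, with medians of -0.072 at 750 ppm and 0.030 at 2500 ppm. Kctd12, an auxiliary GABA-B subunit gene, was at 0.094 on 1373818_at at 2500 ppm (limma adjusted p = 0.771) and at -0.10 on 1382535_at (limma adjusted p = 0.798).

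Among genes that anchor and traffic GABA-A receptors, Nsf passed the threshold between 2500 and 750 ppm. Its product is an ATPase that takes SNARE complexes apart. Probe set 1369690_at had values of 10.98, 11.10 and 11.04 in controls, 11.31, 11.31 and 11.28 at 750 ppm, and 10.69, 10.53 and 10.79 at 2500 ppm. The 3 groups did not overlap, and 2500 ppm was lowest and 750 ppm highest, the order seen for Gabra2. Nsf fell by 0.63 at 2500 ppm against 750 ppm on this probe set (SE 0.073, limma adjusted p = 0.0132) and by 0.54 on 1369689_at (SE 0.083, limma adjusted p = 0.0396), and was at -0.39 on 1372528_at (limma adjusted p = 0.127). Against control, 1369690_at was at -0.37 at 2500 ppm (limma adjusted p = 0.0593) and 0.26 at 750 ppm (limma adjusted p = 0.262).

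The Nsf calls depended on single arrays and on the fit. On 1369690_at the call was lost without 750 ppm replicate 1, 750 ppm replicate 2 or 2500 ppm replicate 1, with limma adjusted p = 0.0536, 0.0522 and 0.0548. On 1369689_at it was kept without 750 ppm replicate 3 and lost without each of the other arrays in turn (highest limma adjusted p = 0.139). It was also lost with the replicate number as a block (limma adjusted p = 0.0783) and with a second quantile normalization (limma adjusted p = 0.0572). A fit of only the 2 groups compared lost the call on both probe sets, 1369690_at at 0.0591 and 1369689_at at 0.112 (limma adjusted p). The third probe set, 1372528_at, passed without 750 ppm replicate 3 (-0.49, limma adjusted p = 0.00878) and with array weights (limma adjusted p = 0.0166). Against control at 2500 ppm, 1369690_at passed with array weights, with the robust intensity trend and without 750 ppm replicate 3 (limma adjusted p = 0.0173, 0.0444 and 0.0495). At 750 ppm, 1372528_at and 1369690_at passed with array weights (limma adjusted p = 0.0321 and 0.0473). In all, 2 of 33 probe sets of this list were called between 2500 and 750 ppm, both lower, against 0.17% of all probe sets called lower, and none against control at either concentration. The list medians were -0.032 between those concentrations, 0.011 at 750 ppm and -0.0012 at 2500 ppm.

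Others in that list missed the threshold with all arrays. Slitrk3, an organiser of inhibitory synapses, was at -0.50 at 2500 ppm (SE 0.11, limma adjusted p = 0.0856), with values of 8.02, 7.90 and 8.19 there against 8.31, 8.58 and 8.71 in controls. Nlgn2, the neuroligin of inhibitory synapses, was at -0.52 (SE 0.14, limma adjusted p = 0.130), with 6.72, 6.79 and 6.73 against 7.08, 7.52 and 7.21. On both, all 2500 ppm arrays lay below all controls. Without control replicate 1, Slitrk3 passed (-0.61, limma adjusted p = 0.0460). At 750 ppm, Rdx, whose product radixin ties alpha5 receptors to actin, was at 0.26 on 1378287_at (limma adjusted p = 0.519), and its other 4 probe sets lay between -0.11 and 0.11.

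GABA synthesis, uptake and chloride transport genes had 0 of 11 probe sets called, with 7 higher and 4 lower at 750 ppm and 2 higher and 9 lower at 2500 ppm. The medians were 0.041 and -0.11. Gad2, a GABA-synthesising enzyme gene, had values of 6.66, 6.77 and 6.73 at 2500 ppm and 7.61, 7.59 and 8.23 in controls, a difference of -1.09 (SE 0.31, limma adjusted p = 0.137). In 750 ppm replicate 3 it was 6.74, against 7.84 and 8.08 in the other 750 ppm arrays. Without that array, as with array weights or a fit of only the 2 groups, Gad2 at 2500 ppm passed the threshold (limma adjusted p = 0.0194), as did Gad1 on 1370760_a_at at -0.55 (limma adjusted p = 0.0229, and 0.170 with all arrays). The other Gad1 probe set, 1368344_at, was at -0.58 (limma adjusted p = 0.372). On the 5 arrays where the striatal mean was at least 0.33, Gad2 was 7.59 or higher. On the other 4 it was 6.77 or lower. The interneuron marker mean split the arrays in the same way. It lay between 0.056 and 0.117 on those 5 arrays and between -0.220 and -0.023 on the other 4. That mean takes the brightest probe set of each of 8 genes. Over all tested probe sets of the interneuron list, 7 of 10 were higher at 2500 ppm against control, with a median of 0.099. The cut was chosen after the values were seen. The part of either cell type in the Gad2 difference was not tested. Slc12a2, the chloride importer NKCC1 that keeps chloride high in immature neurons, was at -0.14 at 750 ppm (limma adjusted p = 0.579) and 0.17 at 2500 ppm (limma adjusted p = 0.336). Aldh5a1, of GABA breakdown, was at 0.22 on 1379900_at at 750 ppm (limma adjusted p = 0.543), and at 0.024 and 0.041 on its other probe sets.

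Several members lie side by side in the genome. On assembly GRCr8, Gabrb1 (chr14:36434339-36917920), Gabra4 (chr14:36944747-37021652), Gabra2 (chr14:37451218-37587458) and Gabrg1 (chr14:37750292-37821651) form a cluster of 4 subunit genes within 1387.3 kb. At 2500 ppm against control these neighbours were at -0.051, -0.035, -0.53 and -0.084. Gabra3 (chrX:155301979-155543870) lies between Gabre and Gabrq. Gabrb2 lies at chr10:27438127-27657680, Gabra5 at chr1:117404446-117517424 and Gabbr1 at chr20:1469779-1499352. These are positions of whole genes, not of the probes.

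Promoter windows of 300 bases, with 250 before the annotated start and 50 after it, were available from RefSeq (GRCr8) for 6 of the 7 members, all but Gabra2. Gabra5, Gabbr1 and Gabra4 had windows of 76.3%, 75.0% and 70.7% G and C with 42, 32 and 35 CpG dinucleotides, beside medians of 51.7% and 7 over 33469 windows. Gabrb1, Gabrb2 and Gabra3 were at 49.3%, 44.0% and 39.3%, with 11, 9 and 0 CpG. The pair of beta genes is shown because both windows hold the palindrome GCGCATGCGC, the core of the motif of nuclear respiratory factor 1, although the genes lie on different chromosomes. It is the longest palindrome in the longest run the 2 windows share, of 11 bases; Gabrb2 and Gabbr1 also share a run of 11 bases, another one. The palindrome reads the same on both strands, was chosen after the sequences were seen, and occurs in 0.852% of all windows and in none of the other 4 member windows. A match of letters does not show binding, and no binding was measured here. The windows are chr14:36902844-36903143 on the minus strand for Gabrb1 and chr10:27439543-27439842 on the plus strand for Gabrb2, written 5′ to 3′ with the palindrome in capitals. Both windows lie around a transcript start inside the gene's annotated span.
Gabrb1: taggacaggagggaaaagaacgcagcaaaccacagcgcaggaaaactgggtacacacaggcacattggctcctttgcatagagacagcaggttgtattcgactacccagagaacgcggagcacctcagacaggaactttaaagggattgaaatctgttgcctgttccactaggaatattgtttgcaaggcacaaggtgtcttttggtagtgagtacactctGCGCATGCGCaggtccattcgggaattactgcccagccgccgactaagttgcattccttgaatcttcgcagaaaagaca
Gabrb2: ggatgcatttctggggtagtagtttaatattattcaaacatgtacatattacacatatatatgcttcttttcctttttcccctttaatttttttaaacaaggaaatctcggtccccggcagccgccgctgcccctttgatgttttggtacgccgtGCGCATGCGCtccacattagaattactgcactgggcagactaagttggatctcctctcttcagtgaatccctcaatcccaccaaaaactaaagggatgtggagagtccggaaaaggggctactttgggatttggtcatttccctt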

How the data were processed

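Affymetrix Rat Genome arrays were hybridised with RNA of pup cortex, 1 array per pup, per the labels' protocols. The deposited values are log2 RMA intensities that the authors made with the affy package, per the submitters' processing notes, with versions not given in the sources used here. RMA removes background, equalises the distributions of the arrays by quantiles and combines the probes of a set, which compresses differences between dim values. The number of arrays limits the precision.

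The 57 AFFX controls and the 30% of the other probe sets with the lowest mean were left out, which left 21729. All 9 arrays entered 1 fit of group means in limma 3.58.1 (R 4.3.3, statmod 1.5.0), with p-values adjusted by Benjamini-Hochberg over all probe sets at a threshold of 0.05, two-sided. An exact permutation test of 3 against 3 cannot go below 0.1. Tested on simulated data for 2500 ppm against control (21729 probe sets), 94% of 100 probe sets altered 2-fold were recovered, as were 68% of 100 altered 1.5-fold. The simulation drew independent noise for each probe set, without deviations that an array shares across probe sets. Its rates are averages over probe sets drawn from those tested, whose median residual SD was 0.11. Gabra2 had group SDs of 0.19, 0.35 and 0.22, so the rates need not hold for it.

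Genes were named through the platform annotation (20826 probe sets with 1 symbol, 436 with several, 9780 with none), and the Entrez identifiers of all members matched the GRCr8 gene table. Every member probe set is described. Of the GABA pathway lists, every gene past the threshold was named, and per list and comparison with control up to 2 probe sets with the smallest p. Marker genes past the threshold, and further probe sets of a named gene, were added after their values were seen. For the 3 member probe sets with the widest range, the 3 most alike genes were named. Members, lists and rules were chosen with earlier results of these data known. Each pup came from its own litter and had 1 array. The p-values therefore rest on a spread in which litter, pup and array cannot be told apart.

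Other settings tried were array weights, a block for the replicate number, a robust variance trend with intensity, no dim filter or one at 50%, centring on medians, quantile normalization applied again, fits restricted to the 2 groups in question, omission of each array in turn and, chosen after seeing the data, leaving out 2 arrays together. Of the marker lists, hippocampal, thalamic, interneuron, astrocyte, oligodendrocyte, microglial, endothelial and meningeal markers were scored as means of centred values. Their means at 2500 ppm and in controls ran between 0.02 and 0.09 against -0.04 and 0.04 (hippocampus), 0.01 and 0.10 against -0.21 and -0.13 (thalamus), -0.09 and -0.02 against 0.06 and 0.08 (interneurons), and -0.08 and 0.10 against -0.16 and 0.02 (astrocytes). They ran between 0.03 and 0.17 against -0.10 and 0.09 (oligodendrocyte lineage), 0.01 and 0.03 against -0.23 and -0.09 (microglia), 0.02 and 0.25 against -0.55 and -0.11 (endothelium), and 0.01 and 0.40 against -1.10 and -0.18 (meninges). These means over genes and the medians over probe sets at 2500 ppm against control differed in sign for interneurons (median 0.099, with 7 of 10 probe sets higher), hippocampus (-0.22), oligodendrocyte lineage (-0.032) and astrocytes (-0.0074).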

Additional observations from a re-analysis of the deposited data

Results flagged for a closer look

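Gabra2 (1397614_at) lay on opposite sides of the control mean at the 2 concentrations: all 3 arrays at 2500 ppm were below it and all 3 at 750 ppm were above it. The difference between 2500 and 750 ppm was -0.91 (limma adjusted p = 0.0779), so the difference itself missed the threshold with all arrays.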

How the results depend on the processing

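The count of member probe sets past the threshold stayed at 0 except in the following cases, where Gabra2 was the 1 called. Array weights gave 1 at 2500 ppm against control and 1 between 2500 and 750 ppm. Leaving out 1 array gave counts between 0 and 1 between 2500 and 750 ppm, with 1 only without 750 ppm replicate 3. Leaving out control replicate 3 and 750 ppm replicate 3 together gave 1 in that comparison (Gabra2 at -1.06, limma adjusted p = 0.0141). Over all alternatives, the limma adjusted p of Gabra2 ran between 0.0212 and 0.418 at 2500 ppm against control, between 0.0131 and 0.263 between 2500 and 750 ppm, and between 0.169 and 0.836 at 750 ppm.

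Of 1257 alternative values of 72 log2 differences, 43 turned sign, in 17 results whose size in the main setting was at most 0.13, and none of the 43 passed the threshold (lowest limma adjusted p = 0.370). With array weights, Gabbr1 at 750 ppm went to 0.023 (1369371_a_at) and -0.042 (1369372_at), at 2500 ppm to 0.00071 (1388030_a_at), and between the concentrations to -0.040 (1375720_at). Kctd12 at 2500 ppm went to -0.0081, and the Gabbr1 slopes to 0.0058 (1388030_a_at) and -0.0032 (1388039_a_at). With both doubted arrays left out, the 750 ppm values were -0.035 (Gabra3), -0.024 (Gabrb1) and -0.031 (Gabbr1 1369372_at). Gabbr1 1388039_a_at at 2500 ppm was at -0.00078, Gabbr1 1375720_at between the concentrations at -0.093, and the Gabbr1 slopes at 0.0059 (1388030_a_at) and -0.0096 (1388039_a_at). Leaving out 1 array at a time moved the following across 0. At 750 ppm these were Gabrb1 (-0.16 to 0.30), Gabrb2 1377773_at (-0.022 to 0.022), Gabbr1 1369371_a_at (-0.019 to 0.023) and Gabbr1 1369372_at (-0.071 to 0.12). At 2500 ppm they were Gabra4 (-0.25 to 0.095), Gabrb1 (-0.34 to 0.12) and Gabbr1 1388039_a_at (-0.00078 to 0.051). Between the concentrations they were Gabra5 (-0.053 to 0.077) and Gabbr1 1375720_at (-0.093 to 0.11). Among slopes they were Gabra4 (-0.11 to 0.034), Gabra5 (-0.052 to 0.0028), Gabrb1 (-0.13 to 0.0094), Gabbr1 1388030_a_at (-0.059 to 0.013) and Gabbr1 1388039_a_at (-0.0087 to 0.015). The cause of these turns was not tested.

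Replicate numbers showed no clear pairing of the arrays: same-numbered arrays of different groups correlated between -0.21 and 0.31 in their deviations, with 3 of 9 pairs over 0.1. Differently numbered arrays of different groups correlated between -0.34 and 0.19. Deviations from a mean of 3 arrays depend on each other within a group, so this check cannot exclude pairing. With the replicate block, 0 member probe sets were called in each comparison, and Gabra2 had a limma adjusted p of 0.176 at 2500 ppm and 0.0853 between the concentrations. The share of all probe sets called ran over the alternatives between 0.0414% and 6.88% at 2500 ppm, between 0% and 1.56% at 750 ppm, and between 0.0598% and 5.23% between the concentrations. RMA values carry no detection call. Because RMA compresses differences between dim values, changes of the dimmest members, Gabbr1 1369372_at and Gabra3, may be compressed.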
